A study of Mus musculus with 12 samples.

Results

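The comparison described here is the response of the mouse retina to raised intraocular pressure (IOP), pooled over all 6 mice of the study. The 6 IOP-treated retinas were set against the 6 control retinas of the same animals, so that all 12 libraries of the series entered, as 6 eye pairs. Every mouse carried the p16-3MR transgene, in which regulatory DNA of p16Ink4a drives a viral thymidine kinase, and was 12 to 16 weeks old. In every mouse 1 eye was infused with saline and held at 85 to 90 mm Hg for 60 min, and the fellow eye was left untouched as control. Mice 1, 2 and 5 then received ganciclovir (GCV), which the viral kinase turns into a toxic product, at 25 mg/kg daily for 3 days (groups IOP-GCV and ctrl-GCV), and mice 3, 4 and 6 received PBS in its place (groups IOP and ctrl). All groups share the transgene, and no library comes from a retina without it. RNA was taken from whole retinas 3 days after the injury, so that fewer cells of a type and less RNA per cell cannot be told apart in any result given here.

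Pressure above the perfusion pressure of the eye cuts off its blood flow, and retinal ganglion cells, whose axons form the optic nerve, are the neurons best known to be lost afterwards. Mueller glia, the radial support cells of the retina, and microglia, its resident macrophages, react to such an injury. Interferons and cytokines of the interleukin-6 family act through receptors that switch on STAT and IRF factors, and these bind short DNA elements near the genes that they control.

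Expression is given in FPKM (fragments per kilobase of exon, scaled to the fragments mapped). A change is IOP minus control on the log2(FPKM + 1) scale, with its SE over the 6 mice, and the scale understates the change of genes at low FPKM. The libraries summed to between 394758 and 529896 FPKM. From the spacing of low values, 11 libraries held an estimated 6830000 to 9060000 fragments and the IOP library of mouse 6 held 4000000. That library also had the fewest genes above 0, 14844 against 16044 to 16593 in the others. Rod genes summed to between 49575 and 90445 FPKM in the 12 libraries. Lens genes stood apart. They summed to 9585 FPKM in the control retina of mouse 1 and to 77.1 to 235 FPKM in the other control retinas, and to 325 FPKM in the IOP retina of mouse 3 and 4387 to 8724 FPKM in the other IOP retinas. A fit without mice 1 and 6 together, chosen after the data had been seen, is therefore given beside counts that it moves by over 1.5 times, and once for all lists with 1 or 2 genes called lower. The source of the lens transcripts in the control retina of mouse 1, and whether the eyes of that mouse carry the right labels, cannot be settled from the labels, so that its pair and the lens calls are to be read with that limit. Gfap, a glial injury marker, was 9.62 FPKM in the retina of mouse 1 labelled control and 80.1 FPKM in the one labelled IOP. Interferon effector genes summed to 96.0 FPKM in the former and 626 FPKM in the latter. Over the 6 mice they summed to 90.6 to 183 FPKM in control retinas and 502 to 1124 FPKM in IOP retinas. Genes of retinal ganglion cell identity summed to 1549.7 FPKM and 1053.5 FPKM in the same retinas of mouse 1. An exchange of the labels was not tested beyond these values.

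Of 18509 genes tested, 1278 were called higher in IOP-treated retinas (6.9%) and 1337 lower (7.22%), by limma with the mouse as a block at an adjusted p under 0.05. The median change was 0.93 among genes called higher and -0.76 among genes called lower. Rises reached further, with 593 genes at least 2-fold higher and 327 at least 2-fold lower. All 6 mice moved the same way in 1200 of the genes called higher and 1165 of those called lower. The 6 IOP values and the 6 control values did not overlap in 874 of the genes called higher and 371 of those called lower, where 7.9% of all genes tested did not overlap.

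**Figure D1:**
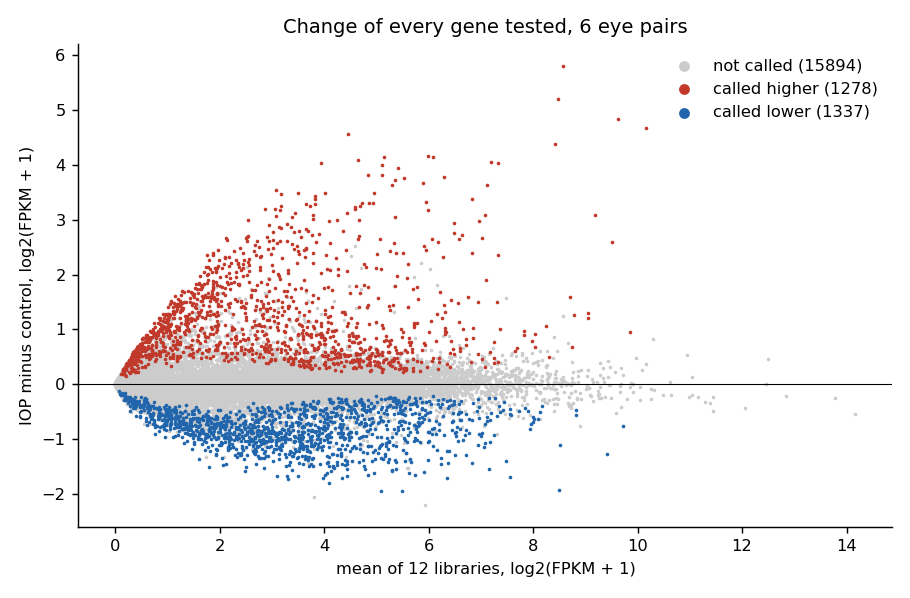
Change of each of the 18509 genes tested (IOP minus control, log2(FPKM + 1), vertical axis) against its mean over the 12 libraries (log2(FPKM + 1), horizontal axis), 1 point a gene. The 1278 genes called higher (red) reach 5.80, while the 1337 genes called lower (blue) reach -1.94.

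The falls depended more on single animals than the rises. With 1 mouse left out at a time, 496 to 1084 genes were called higher and 72 to 1441 lower. Without mouse 3 both counts were lowest. Genes called lower numbered 206 without mouse 2, 120 without mouse 5 and 480 without mouse 6, and genes called higher numbered 781 without mouse 2 and 713 without mouse 5. In all 6 of these fits, 469 of the genes called higher and 58 of those called lower were called again. Without mice 1 and 6 together, 468 genes were called higher and 71 lower. In each list given below with 1 or 2 genes called lower that fit called 0 of them, except clustered histones, where it called 1.

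**Figure D2:**
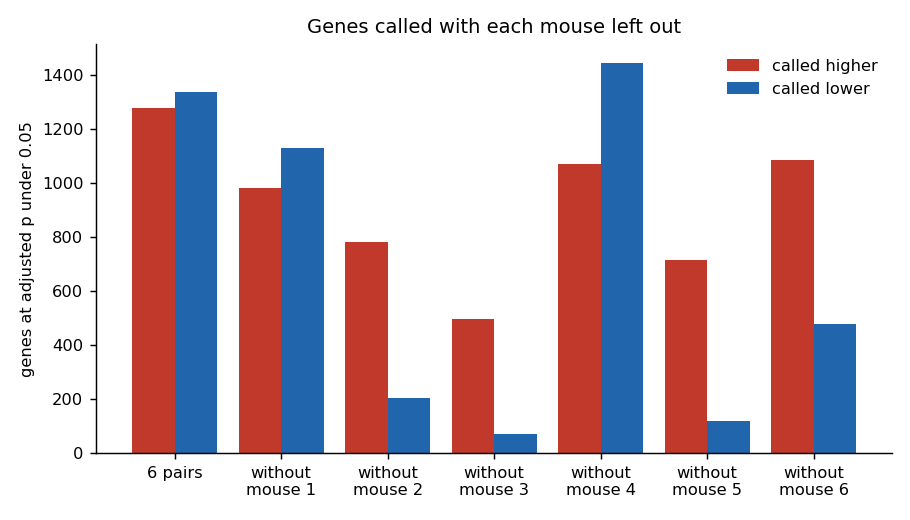
Number of genes called higher (red bars) and lower (blue bars) at an adjusted p under 0.05, with all 6 eye pairs and with each mouse left out in turn. Genes called lower range from 72 without mouse 3 to 1441 without mouse 4, and genes called higher from 496 without mouse 3 to 1084 without mouse 6.

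Genes of the interferon response rose together. All 38 interferon effector genes of the list used here were called higher, with a median change of 1.73 against 0.01 over all genes tested, and 37 of them were higher in all 6 mice. Like the other lists, it was written with earlier results of these data known, so that the full count is not independent support. The promoters printed here are those of the genes with the smallest adjusted p, among interferon effector, STAT and gp130 genes, that held an interferon-stimulated response element. The element was searched as GAAANNGAAA and, for the other strand, TTTCNNTTTC. Each sequence is the 250 bases before the annotated start site, from RefSeq on GRCm38.p6, 5′ to 3′ on the strand of the gene, with matches in capitals. The window of Ifit1 is chr19:34640639-34640888 (plus strand) and that of Lgals9 is chr11:78984925-78985174 (minus strand).
Ifit1: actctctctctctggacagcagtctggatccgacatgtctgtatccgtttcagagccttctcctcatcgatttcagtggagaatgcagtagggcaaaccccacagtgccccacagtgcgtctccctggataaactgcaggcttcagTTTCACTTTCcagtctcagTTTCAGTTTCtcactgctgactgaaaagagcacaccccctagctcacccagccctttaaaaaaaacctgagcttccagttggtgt
Lgals9: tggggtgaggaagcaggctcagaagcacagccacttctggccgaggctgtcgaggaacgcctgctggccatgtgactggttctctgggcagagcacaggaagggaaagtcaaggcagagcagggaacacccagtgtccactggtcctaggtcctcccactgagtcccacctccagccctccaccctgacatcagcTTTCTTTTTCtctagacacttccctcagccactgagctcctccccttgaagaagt
The matches of Ifit1 begin 104 and 85 bases before its start site. The match shown for Lgals9 begins 55 bases before its start site, and its other match reaches past that site.

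RefSeq windows of 300 bases, which add 50 bases after the start site, were at hand for 13785 of the genes tested (74.48%). The interferon element was found in 10.4% of the genes called higher, 3.51% of those called lower and 3.74% of all genes with a window. Among interferon effector genes it was found in 19 of 31, among genes of MHC class I and antigen processing in 4 of 15, among genes of retinal ganglion cell identity in 2 of 15, and among genes of cholesterol and fatty acid synthesis in 0 of 16. The letters TTCNNNGAA of a STAT site, which read the same on both strands, were found in 11.7% of the genes called higher, 6.91% of those called lower and 8.55% of all. The letters TGANTCA of an AP-1 site, also the same on both strands, were found in 12.2%, 6.19% and 7.16% of the same groups. A match describes letters and is not evidence of binding.

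Ifit1, which binds foreign RNA, had 2.09, 2.63, 2.81, 2.04, 2.77 and 2.32 FPKM in the control retinas of mice 1 to 6. It had 18.8, 18.8, 20.0, 28.9, 37.7 and 13 FPKM in their IOP retinas. Every IOP value lay above every control value, and the change was 2.72 ± 0.19 (n = 6 mice; adjusted p = 0.000866 by limma). Oasl2, of the oligoadenylate synthetase family, rose from a median of 5.46 FPKM to 38.1 FPKM, a change of 2.71 ± 0.13, and shared the smallest adjusted p of all genes (0.00056) with 4 others. Lgals9, a galectin, lay at 1.79 to 4.15 FPKM in control retinas and 12.4 to 31.5 FPKM in IOP retinas. Ifitm3, which blocks viral entry and was the most abundant gene of the list, lay at 10.9 to 47.1 FPKM in control retinas and 129 to 203 FPKM in IOP retinas. Ube2l6, the enzyme that passes on the ubiquitin-like Isg15, rose by 1.63 ± 0.11. With 1 mouse left out, 31 to 36 genes of the list were called, and without mice 1 and 6 together 27.

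Of 18 STAT, IRF and JAK genes, 9 were called higher and 2 lower, with a median change of 0.93. Stat3, which relays signals of the interleukin-6 family (GRCm38.p6, chr11:100886806-100939594), had 11.3, 12.5, 11.2, 11.8, 9.91 and 14.8 FPKM in the control retinas of mice 1 to 6. Its IOP values were 33.2, 39.8, 45.2, 44.2, 52.1 and 43.7 FPKM. The groups did not overlap, and the change was 1.77 ± 0.12 (adjusted p = 0.000866). Irf9, part of the complex that binds interferon-stimulated elements, rose by 2.65 ± 0.18. Jak1, a kinase bound to these receptors and the most abundant gene of the list, was lower by a small step, -0.24 ± 0.06 (adjusted p = 0.0398), a call that each of the 6 fits without 1 mouse lost. Stat5b was the other gene called lower, at -0.69 ± 0.15, and is named after its values were seen. Its call was kept in 3 of the 6 fits without 1 mouse, and the list held 0 genes called lower without mouse 2, 3 or 5.

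Among 18 cytokines, receptors and SOCS proteins of the gp130 family, 6 were called higher and 1 lower, with a median change of 0.34. The ligand Cntf, a survival factor for neurons, rose from a median of 4.18 FPKM to 13.7 FPKM with no overlap between the eyes (1.40 ± 0.11, adjusted p = 0.00131). The receptors Osmr and Il6st, the latter being gp130 itself, rose by 1.56 ± 0.14 and 0.77 ± 0.10. The feedback inhibitor Socs3 lay at 1.48 to 3.27 FPKM in control retinas and 12.5 to 45.1 FPKM in IOP retinas, a change of 2.79 ± 0.30. The gene called lower was Cntfr, the receptor subunit that binds Cntf, at -0.91 ± 0.16, named after its values were seen, and this call was lost without mouse 3.

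Of 22 genes of interleukin-1 and TNF signalling, 11 were called higher and 0 lower, with a median change of 0.87, and 3 were called higher without mice 1 and 6 together. Casp1, the protease that matures interleukin-1 beta, lay at 0.0956 to 0.255 FPKM in control retinas and 1.51 to 6.10 FPKM in IOP retinas. The receptors Tnfrsf1a and Ltbr rose by 1.51 ± 0.21 and 0.98 ± 0.12. Il33, an alarm cytokine and the most abundant gene of the list, was higher in 6 of 6 mice but missed the threshold (0.24 ± 0.06, adjusted p = 0.0505).

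Among 20 NF-kB factors and inhibitors, 6 were called higher and 1 lower, and the higher count was 2 without mouse 2, 1 without mouse 3, 3 without mouse 4 and 2 without mice 1 and 6 together. Bcl3, a nuclear regulator of NF-kB, rose from a median of 0.373 FPKM to 21.7 FPKM, a change of 4.04 ± 0.28. Rela, the main activating subunit, rose by 0.62 ± 0.11. Tnfaip3, which ends NF-kB signalling, was the gene called lower, with 74.6 to 91.1 FPKM in control retinas and 32.5 to 65.6 FPKM in IOP retinas, so that the eyes did not overlap, but its call was lost without mouse 3.

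Of 21 AP-1 and immediate early factors, 13 were called higher and 0 lower, with a median change of 0.68, and 8 were called higher without mouse 3 and also without mice 1 and 6 together. Cebpd, a factor of the acute-phase response, rose by 3.23 ± 0.25, and the AP-1 subunits Junb and Fosb by 2.06 ± 0.19 and 1.53 ± 0.17. Of 21 chemokines, 9 were called higher and 2 lower, and the higher count was 5 without mouse 3 and 3 without mice 1 and 6 together. Ccl2, which draws monocytes, lay at 0 to 0.455 FPKM in control retinas and 3.86 to 19.2 FPKM in IOP retinas. Ccl5, which draws T cells and monocytes, lay at 0 to 0.629 FPKM and 4.75 to 31.1 FPKM. The chemokines called lower were Cxcl14, the most abundant of the list, at -0.75 ± 0.18, and Cx3cl1, made by neurons and named after its values were seen, at -1.16 ± 0.30. Neither was called without mouse 2, 3 or 5, without mice 1 and 6 together or without the replicate block, and 1 of them was called without mouse 6.

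Complement and antigen presentation genes also rose. Of 20 complement genes, 12 were called higher and 0 lower, with a median change of 1.28, and 7 were called without mice 1 and 6 together. C1qa, a chain of the first component of the classical pathway, had 15.8, 17.0, 13.4, 13.3, 17.2 and 24.0 FPKM in the control retinas of mice 1 to 6. The IOP retinas of the same mice had 137, 70.1, 98.1, 75.2, 121 and 109 FPKM. The lowest IOP value was above the highest control value, and the change was 2.52 ± 0.15 (adjusted p = 0.000674). C1qb and C1qc, the chains that join it, rose by 2.77 ± 0.19 and 2.58 ± 0.22. Clu, the complement inhibitor clusterin and the most abundant gene of the list, was higher in 6 of 6 mice but was not called (0.43 ± 0.16, adjusted p = 0.117).

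Of 18 genes of MHC class I and antigen processing, 14 were called higher and 0 lower, with a median change of 1.68. B2m, the light chain of class I molecules, lay at 81.2 to 165 FPKM in control retinas and 427 to 2448 FPKM in IOP retinas. H2-D1, a heavy chain gene with near-identical relatives that may share its reads, rose by 2.68 ± 0.21, and the immunoproteasome subunit Psmb8 by 2.39 ± 0.11. Of 8 MHC class II genes, 7 were called higher, and 4 without mouse 3. Cd74, the invariant chain of class II molecules, lay at 1.49 to 20.0 FPKM in control retinas and 67.1 to 176 FPKM in IOP retinas, a change of 4.17 ± 0.39. The class II chains H2-Aa and H2-Ab1 rose by 4.0 ± 0.34 and 3.72 ± 0.31.

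Genes of microglia and macrophages were among the largest rises. Of 22 genes of activated microglia and macrophages, 19 were called higher and 0 lower, with a median change of 1.32, and 12 were called without mouse 3 and also without mice 1 and 6 together. Lyz2, the lysozyme of myeloid cells (GRCm38.p6, chr10:117277541-117282272), had 9.18, 5.84, 10.4, 6.90, 19.1 and 40.1 FPKM in the control retinas of mice 1 to 6. Its values in the IOP retinas were 489, 124, 627, 278, 2049.7 and 604 FPKM. The groups did not overlap, and among IOP retinas mouse 5 was highest and mouse 2 lowest (5.21 ± 0.35, adjusted p = 0.000866). Cd68, a lysosomal protein of macrophages, rose by 4.14 ± 0.38, Ctss, a lysosomal protease, by 2.98 ± 0.27, and the receptor Clec7a by 2.69 ± 0.19. The apolipoprotein Apoc2 lay at 0 to 0.962 FPKM in control retinas and 8.84 to 114 FPKM in IOP retinas. Outside the lists, a rise of this size was seen for Wfdc17, at 4.08 ± 0.44.

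Of 16 genes of homeostatic microglia, 11 were called higher and 1 lower, and the higher count was 6 without mouse 3 and 4 without mice 1 and 6 together. The 4 members not called, named after their values were seen, were P2ry12, Tmem119, Gpr34 and Sall1, which mark microglia more closely than Tyrobp and Aif1, genes that macrophages also express. Their changes were 0.28 ± 0.14, 0.54 ± 0.20, 0.34 ± 0.20 and -0.03 ± 0.08. The adaptor Tyrobp lay at 6.03 to 13.5 FPKM in control retinas and 47.3 to 249 FPKM in IOP retinas. Aif1, which encodes Iba1, and the receptor Fcrls rose by 2.18 ± 0.17 and 1.97 ± 0.21. Siglech, a microglial lectin, was the gene called lower and is named after its values were seen, with 0.848 to 1.10 FPKM in control retinas and 0 to 0.614 FPKM in IOP retinas, though not called without mouse 3 or 5.

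Of 19 genes of infiltrating leukocytes, 11 were called higher and 0 lower, with 6 higher without mice 1 and 6 together and 7 among genes of at least 1 FPKM in 6 libraries. Their summed level was 8.44 to 24.0 FPKM in control retinas and 71.6 to 569 FPKM in IOP retinas, with mouse 5 the highest in both. Ccr2, the receptor for Ccl2 on monocytes, lay at 0.0387 to 0.234 FPKM in control retinas and 2.72 to 9.31 FPKM in IOP retinas. S100a8, a protein of neutrophils and monocytes, rose by 3.63 ± 0.32, and its control value of 11.6 FPKM in mouse 5 lay above its IOP value of 11 FPKM in mouse 3. The T cell gene Cd3e and the B cell gene Cd79a were not called. Of 8 blood genes 0 were called by limma, and 0 had an unadjusted p under 0.05, with sums of 56.2 to 193 FPKM in control retinas and 25.6 to 524 FPKM in IOP retinas. The part of entering cells in the rises was not tested.

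**Figure D3:**
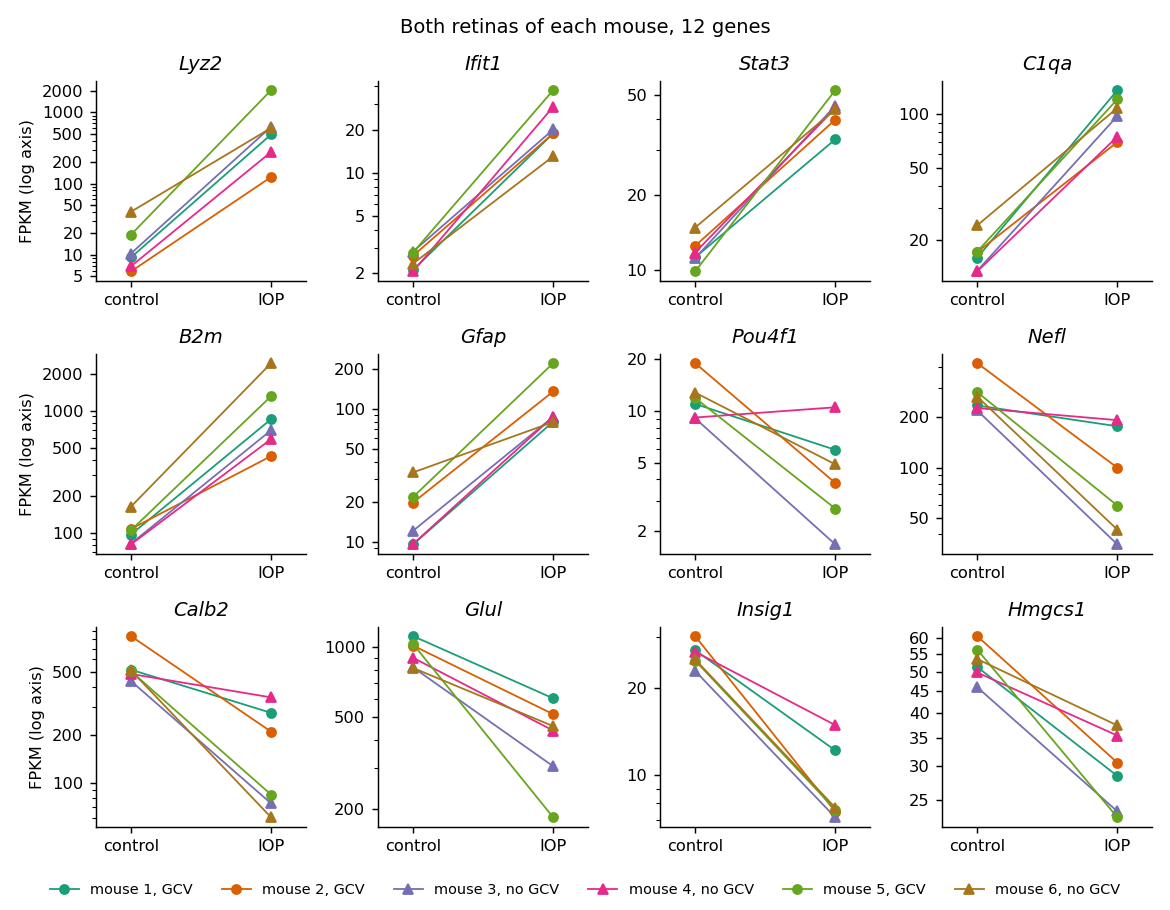
FPKM (log axis) of 12 genes in the control and the IOP retina of each mouse, joined by a line, with circles for mice given GCV and triangles for mice without it. Lyz2, Ifit1, Stat3, C1qa, B2m and Gfap are higher in the IOP retina of all 6 mice, while Nefl and Calb2 fall least in mice 1 and 4 and Pou4f1 does not fall in mouse 4.

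Genes of reactive gliosis rose as a group. Of 22 such genes, 18 were called higher and 0 lower, with a median change of 1.79. Gfap, the intermediate filament of reactive glia, named after its values were seen, had 9.62, 19.8, 12.2, 9.69, 21.8 and 33.3 FPKM in the control retinas of mice 1 to 6. In the IOP retinas it had 80.1, 135, 87.0, 87.5, 219.9 and 79.5 FPKM. Every IOP value lay above every control value, and mouse 6 showed the smallest change, 1.23, against 2.66 ± 0.25 in the fit. Edn2, an endothelin, rose from a median of 2.88 FPKM to 51.7 FPKM, and Fgf2, a survival factor, rose by 2.99 ± 0.16 (adjusted p = 0.00056). Cryab, a chaperone that also belongs to the lens and heat shock lists, was the most abundant gene of the gliosis list and changed by 2.60 ± 0.66, with a fall in 1 mouse.

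Of 20 acute-phase and iron proteins, 8 were called higher and 0 lower, and 4 without mice 1 and 6 together. Saa3, a serum amyloid (GRCm38.p6, chr7:46711998-46719615), had the largest change of all called genes, 5.80 ± 0.80 (adjusted p = 0.00817). It had 0.358, 0.716, 0.712, 0.601, 3.99 and 0.629 FPKM in the control retinas of mice 1 to 6. Its IOP values were 224, 24.9, 17.4, 69.6, 4173 and 49.0 FPKM, a spread in which mouse 5 stood far above the rest although no IOP value reached down to a control value. Lcn2, which binds bacterial iron carriers, rose by 3.63 ± 0.35, the protease inhibitor Serpina3n by 3.37 ± 0.40 and the ferroxidase Cp by 1.49 ± 0.18.

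Homeostatic genes of Mueller glia went in both directions, with 3 of 20 called higher and 5 lower. Glul, glutamine synthetase, which clears glutamate, had 1119, 1018, 820.2, 902, 1035 and 815 FPKM in the control retinas of mice 1 to 6. The IOP retinas of the same mice had 602, 515, 306, 437, 184 and 457 FPKM. No IOP value reached a control value, mouse 5 was lowest, and the change was -1.28 ± 0.24 (adjusted p = 0.0208). Rlbp1, a retinal carrier shared with pigment epithelium, fell by 0.65 on the log2 scale. The membrane proteins Pdpn and Cd9 rose by 1.20 ± 0.15 and 0.92 ± 0.11, and the lipid carrier Apoe by 0.96 ± 0.23. The count of genes called lower was 2 without mouse 2, 0 without mouse 3, 1 without mouse 5 and 0 without mice 1 and 6 together, and the higher count was 2 without mouse 1, 2, 3, 4 or 5, and 5 without mouse 6 and with array weights. Apoe was called in 1 of the 6 fits without 1 mouse.

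Genes of inner retinal neurons were called lower in several lists. Of 25 genes of retinal ganglion cell identity, 20 were called lower and 1 higher, with a median change of -1.13. Pou4f1, which encodes Brn3a, had 11, 19.0, 9.07, 9.16, 11.9 and 12.8 FPKM in the control retinas of mice 1 to 6. In the IOP retinas it had 5.94, 3.8, 1.67, 10.5, 2.70 and 4.88 FPKM. Mouse 4 was the animal in which it was not lower, the groups overlapped, and the change was -1.27 ± 0.30 (adjusted p = 0.0353). Leaving out 1 mouse kept that call in 1 fit of 6. Pou4f3, a relative of Pou4f1, was lower in 6 of 6 mice with no overlap, at -1.37 ± 0.20 (adjusted p = 0.00987), a call kept in 6 of those 6 fits.

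Chrna6, an acetylcholine receptor subunit, and its partner Chrnb3, which is not on the list, fell by 1.94 and 1.72 on the log2 scale. The neurofilament genes Nefl and Nefh fell by 1.70 and 1.12 on that scale. Nefl lay at 219 to 420.4 FPKM in control retinas and 34.8 to 192 FPKM in IOP retinas. Sncg, gamma-synuclein and the most abundant gene of the list, changed by -1.11 ± 0.25 and was not lower in mouse 4. The gene called higher was Sox11, a developmental factor named after its values were seen, which lay at 0.140 to 0.376 FPKM in control retinas and 0.320 to 1.93 FPKM in IOP retinas. Its call was lost without mouse 2, without mouse 5 and without mice 1 and 6 together.

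The fall of the ganglion cell list differed in size between the mice. The median change over its genes was -0.51, -1.75, -1.51, -0.02, -1.72 and -1.33 in mice 1 to 6. Mouse 4 showed next to no fall, although its interferon list had a median change of 1.96. With mice 1 to 6 left out in turn, 19, 1, 1, 21, 1 and 5 genes of the list were called lower, so that the calls rested on mice 2, 3, 5 and 6. Without mice 1 and 6 together none of the list was called lower, and without the replicate block 17 were.

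Amacrine and horizontal cell genes were called lower in 14 of 23 cases and higher in 0, with a median change of -0.78. Their median was -0.42, -0.88, -1.22, -0.22, -1.18 and -0.88 in mice 1 to 6, so that mice 1 and 4 again showed the smallest falls. Calb2, the calcium binding protein calretinin, lay at 437 to 839 FPKM in control retinas and 60.6 to 345 FPKM in IOP retinas, with no overlap. The glycine transporter Slc6a9 fell by 0.89 on the log2 scale and was called in all 6 fits without 1 mouse. Dab1, an adaptor of Reelin signalling, changed by -0.81 ± 0.15. The list held 1 call without mouse 2, 3 or 5, 5 without mouse 6 and 1 without mice 1 and 6 together.

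Synaptic vesicle and active zone genes were called lower in 11 of 25 cases and higher in 0. Rims1 and Cplx1, which ready vesicles for release, fell by 1.72 and 1.71 on the log2 scale. Slc17a7, a vesicular glutamate transporter and the most abundant gene of the list, had a difference of -0.13 ± 0.17 (adjusted p = 0.648). Without mouse 2, 3 or 5, or without mice 1 and 6 together, none was called lower, and without mouse 6 it was 4.

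Of 23 bipolar cell genes, 9 were called lower and 0 higher, with 1 lower without the replicate block, 3 with mouse as a random effect and 15 among genes of at least 1 FPKM in 6 libraries. The calcium binding protein Cabp5 changed by -0.68 ± 0.16, the G protein subunit Gng13 by -0.63 ± 0.15 and the factor Isl1, which ganglion cells also make, by -0.89 ± 0.22. The count of genes called lower was 5, 4, 0, 4, 0 and 2 with mice 1 to 6 left out in turn, and 0 without mice 1 and 6 together.

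Photoreceptor lists gave few calls. Of 25 rod genes 0 were called by limma, with a median change of -0.22, and 3 were lower and 0 higher at an unadjusted p under 0.05. The median over the list was -0.22, 0.25, -0.38, -0.55, -0.33 and -0.0030 in mice 1 to 6. The variance trend of the fit is wide at the highest FPKM, and without the trend 1 rod gene was called higher and 1 lower. Of 17 cone genes, 1 was called higher and 4 lower. Gnb3, the G protein subunit of cones and ON bipolar cells, lay at 215 to 283 FPKM in control retinas and 428 to 843 FPKM in IOP retinas, a change of 1.27 ± 0.16 (adjusted p = 0.00606). Arr3, cone arrestin, went the other way, with 93.8 to 151 FPKM in control retinas and 28.5 to 87.0 FPKM in IOP retinas. The count of cone genes called lower was 0 without mouse 3, 1 without mouse 5 and 0 without mice 1 and 6 together.

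**Figure D4:**
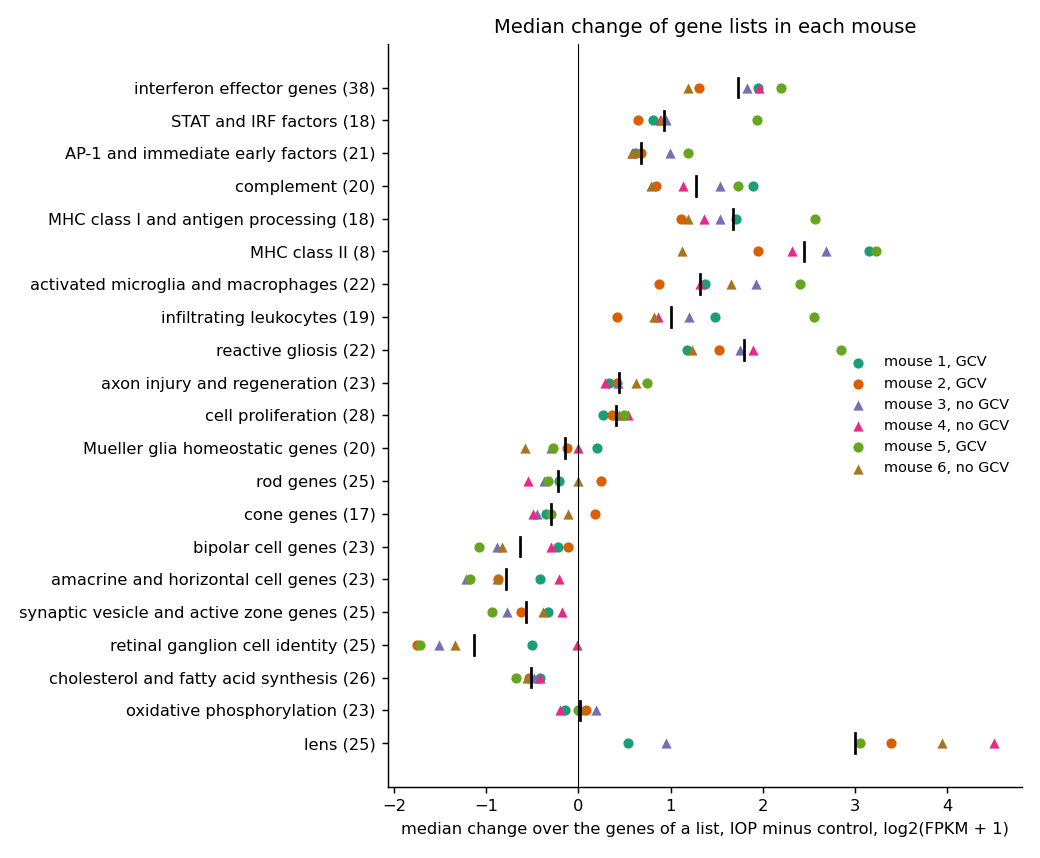
Median change over the genes of 21 lists (IOP minus control, log2(FPKM + 1), horizontal axis, number of genes in brackets) in each mouse, with circles for mice given GCV, triangles for mice without it and a black bar at the median of the fitted changes. The immune and gliosis lists lie above 0 in all 6 mice, while the ganglion cell list ranges from -1.75 in mouse 2 to -0.02 in mouse 4.

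Cholesterol and fatty acid synthesis was lower in every animal. Of 26 genes, 19 were called lower and 0 higher, and 19 were lower in all 6 mice. The median change was -0.51, and -0.42, -0.54, -0.49, -0.41, -0.68 and -0.55 in mice 1 to 6, so that mouse 4 fell here much as the others did. Insig1, which holds back the sterol sensor (GRCm38.p6, chr5:28071412-28078662), had 27.1, 30.3, 23, 26.7, 24.9 and 25.2 FPKM in the control retinas of mice 1 to 6. Its IOP values were 12.2, 7.49, 7.16, 14.9, 7.62 and 7.73 FPKM. No values overlapped, and the change was -1.42 ± 0.14, with the smallest adjusted p of all genes called lower (0.00314). The enzymes Hmgcs1 and Fdft1, of the early and middle steps of cholesterol synthesis, fell by 0.84 and 0.62 on the log2 scale. The count was 9 without mouse 2, 6 without mouse 3 or mouse 5, 8 without mice 1 and 6 together, and 19 without the replicate block.

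Injury and stress genes rose in part. Of 23 genes of axon injury and regeneration, 11 were called higher and 0 lower, and 7 without mouse 5. Atf3, a stress factor of injured neurons, rose by 2.03 ± 0.24, and the peptidase Ecel1 lay at 0 to 0.203 FPKM in control retinas and 2.10 to 7.13 FPKM in IOP retinas. Sprr1a, made by regenerating neurons, rose by 2.46 ± 0.27 with some overlap between the eyes. Atf4, the most abundant gene of the list, was higher in 6 of 6 mice but missed the threshold (0.26 ± 0.08, adjusted p = 0.0706). Of 24 genes of p53 and the DNA damage response, 8 were called higher and 1 lower, and the higher count was 4, 5, 3, 7, 3 and 5 with mice 1 to 6 left out in turn and 1 without mice 1 and 6 together. The lower call was kept without mouse 4 but lost without any other mouse and with mouse as a random effect or no replicate block. Gadd45b, a stress sensor, rose by 2.79 ± 0.21 and Cdkn1a, the cell cycle inhibitor p21, by 1.71 ± 0.25.

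Of 21 senescence inhibitors and marks, 5 were called higher and 0 lower, with 3 without mouse 3, 4 or 5 and 0 without mice 1 and 6 together. Plaur, the urokinase receptor, was listed at 0 in 4 of the 6 control retinas and lay at 0.708 to 4.83 FPKM in IOP retinas. Cdkn2a, which encodes p16Ink4a, had 0.345, 0.171, 0.189, 0.160, 0 and 0.301 FPKM in the control retinas of mice 1 to 6. The IOP retinas of the same mice had 0.181, 0, 0, 0.334, 0.601 and 0 FPKM. These levels rest on a few fragments each and the groups overlapped. Values are given by gene symbol, so that the p16Ink4a transcript is not told apart from any other transcript of the gene. The difference was -0.03 on the log2(FPKM + 1) scale (95% interval -0.35 to 0.30), from -0.38 in mouse 6 to 0.68 in mouse 5, and at this level the scale understates folds, so that the values do not bound a change of the gene. The kinase Abl1 was lower in 6 of 6 mice but was not called (-0.19 ± 0.13, adjusted p = 0.369). Its changes ran from -0.83, in mouse 6, to -0.0054. Gapdh, a common reference gene with many near-identical copies that may take its reads, lay at only 3.07 to 5.12 FPKM in control retinas, with a difference of 0.10 ± 0.11 (adjusted p = 0.589).

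Genes of cell division rose at low levels, with 12 of 28 called higher and 2 lower, with 6 and 7 called higher without mice 3 and 5, 6 without mice 1 and 6 together and 7 among genes of at least 1 FPKM in 6 libraries. Top2a lay at 0.0217 to 0.249 FPKM in control retinas and 0.727 to 1.79 FPKM in IOP retinas, and Mki67 and Cdk1, also marks of dividing cells, rose by 0.90 ± 0.10 and 0.68 ± 0.08. Spc25, a kinetochore protein and the most abundant gene of the list (GRCm38.p6, chr2:69193895-69206213), went the other way and had the largest fall of all called genes, -1.94 ± 0.28 (adjusted p = 0.00956). It had 70.1, 74.1, 55.2, 63.3, 84.3 and 66.3 FPKM in the control retinas of mice 1 to 6. In the IOP retinas it had 22.8, 22.3, 14.4, 26.0, 6.28 and 19.5 FPKM, with no overlap. The other gene called lower was the cyclin Ccne1, at -0.58 ± 0.14, named after its values were seen. Spc25 was called in all 6 fits without 1 mouse but not without mice 1 and 6 together, and Ccne1 was called in 2 of the 6. The linker histone gene Hist1h1c fell by 1.65 on the log2 scale, 1 of 2 called lower among 21 clustered histone genes. That count was 1 without mouse 3, without mouse 5 and without the replicate block, and 3 without mouse 1. Also among the 5 smallest adjusted p of called genes that were lower in 6 of 6 mice and reached a mean of 1 FPKM were Gm11961, Brinp3 and Tmem35, at -1.37 ± 0.17, -0.77 ± 0.10 and -0.73 ± 0.09.

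Matrix, adhesion and redox genes rose in smaller numbers. Of 22 matrix proteases and inhibitors, 9 were called higher and 0 lower, with 4 without mouse 3 and 2 without mice 1 and 6 together, and the protease inhibitor Timp1 rose by 3.43 ± 0.41. Of 30 genes of matrix structure and TGF-beta, 5 were called higher and 2 lower, with 2 and 3 higher without mice 3 and 5 and 2 without mice 1 and 6 together. The lower count was 0 without mouse 1, 3, 5 or 6 and 1 without mouse 2 or 4. In this list Tgfbi, an adhesion protein of the matrix, rose by 3.28 ± 0.37. Of 18 leukocyte adhesion genes, 8 were called higher and 1 lower, with 5 higher without mouse 3 and 3 without mice 1 and 6 together. The integrin Itgb2 rose by 2.85 ± 0.33, and the junction protein Jam2 was called lower at -0.31 ± 0.06, though not without mouse 3 or 5. Of 18 NRF2 targets and metallothioneins, 5 were called higher and 1 lower, with 2 and 3 higher without mice 3 and 5 and 3 without mice 1 and 6 together. The lower call was lost in each of the 6 fits without 1 mouse. Hmox1, heme oxygenase, rose by 3.04 ± 0.46 and the metallothionein Mt2 by 1.58 ± 0.26.

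Several lists held few calls or none. Of 18 heat shock chaperones, 2 were called higher, Cryab and the small chaperone Hspb1 (1.31 ± 0.16), and 1 lower. The higher count was 1 without mouse 2, 3, 4, 5 or 6 and the lower count 0 without any of the 6 mice, and Cryab, a gene of the lens list too, was called in 1 of those fits and missed without the replicate block (adjusted p = 0.0571). Of 20 genes of the hypoxia response, 1 was called higher and 2 lower, with 0 lower without mouse 2, 3 or 5 or without mice 1 and 6 together, and Vegfa, the vascular growth factor, changed by -0.35 ± 0.07. Of 23 genes of oxidative phosphorylation, 0 were called by limma, with a median change of 0.02, and 1 had an unadjusted p under 0.05. Of 20 genes of endothelium and barrier, 1 was called lower, the anion carrier Slco1c1, at -0.96 ± 0.18, and 0 without mouse 2 or 5 or without mice 1 and 6 together. Outside the lists, Antxr2, a collagen-binding receptor, rose by 1.90 ± 0.09 and Crym, a thyroid hormone binding protein, by 2.32 ± 0.12, both among the 5 smallest adjusted p.

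Lens genes differed between the eyes in a pattern of their own. Of 25 lens genes, 16 were called higher and 0 lower, with a median change of 3.00, and the count was 16, 8, 11, 13, 8 and 10 with mice 1 to 6 left out in turn and 8 without mice 1 and 6 together. Cryaa, a crystallin, had 3848, 25.1, 1.34, 14.1, 52.5 and 13.8 FPKM in the control retinas of mice 1 to 6. Its IOP values were 2545, 1380.1, 32.6, 1842, 2699.8 and 1345 FPKM. It was high in both eyes of mouse 1 and far lower in the IOP retina of mouse 3 than in the others. Crybb2 and Crygs, among the 10 largest rises of called genes that were higher in 6 of 6 mice and reached a mean of 1 FPKM, overlapped between the eyes as well. Of 17 genes of pigment epithelium, 1 was called lower, a call kept without mouse 6 but lost without any other mouse, and of 17 genes of cornea, ciliary body and iris 0 were called by limma, with 1 higher and 1 lower at an unadjusted p under 0.05.

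The median change over lens genes was smallest in mice 1 and 3, at 0.54 and 0.95. In these mice the median change was 1.95 and 1.83 for the interferon list and 1.18 and 1.75 for the gliosis list, where the fit over 6 mice gave 1.73 and 1.79. It was -0.51 and -1.51 for the ganglion cell list and -0.42 and -0.49 for the cholesterol list, where the fit gave -1.13 and -0.51. The lens sum itself went from 77.1 to 325 FPKM in mouse 3 and from 9585 to 8724 FPKM in mouse 1. The part of lens material in the other results was not tested beyond these values.

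**Figure D5:**
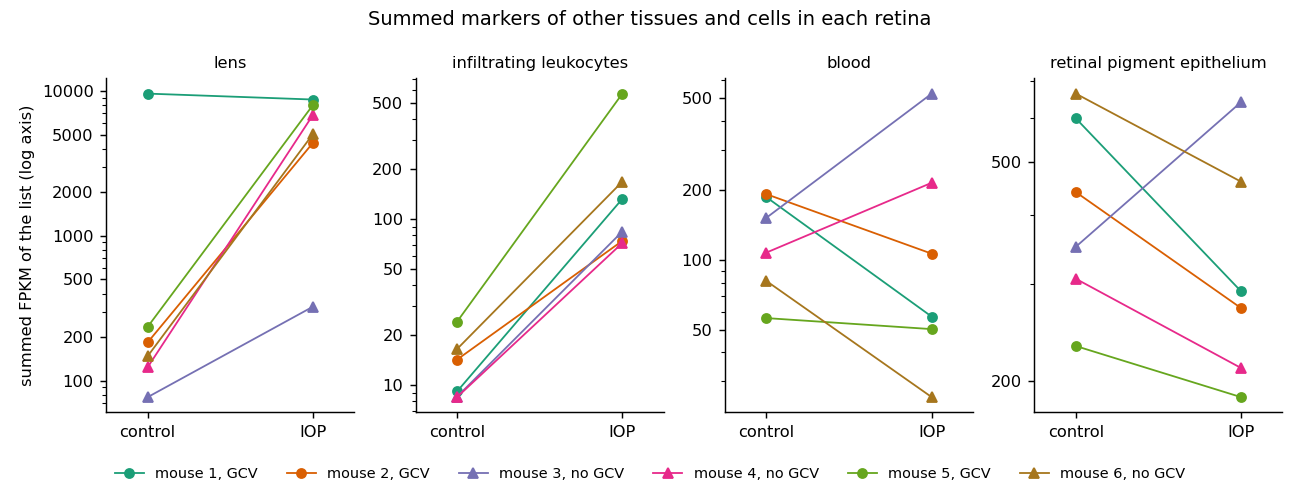
Summed FPKM (log axis) of 4 marker lists in the control and the IOP retina of each mouse, joined by a line, with circles for mice given GCV and triangles for mice without it. Lens genes sum to 9585 FPKM in the control retina of mouse 1, leukocyte genes are higher in the IOP retina of all 6 mice, and blood and pigment epithelium genes go both ways.

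The difference in response between mice with and without GCV was tested for every gene as the interaction of eye and GCV. By limma no gene passed an adjusted p of 0.05, and 378 genes (2.04%) had an unadjusted p under 0.05. Of the genes called in the pooled comparison, 17 of those higher and 8 of those lower were among them. Missing the threshold with 3 mice in each arm does not show that the arms responded alike. Fitted alone, the 3 pairs without GCV gave 0 genes called higher and 0 lower, with 1427 and 1253 at an unadjusted p under 0.05. The 3 pairs with GCV gave 5 higher and 0 lower, with 1920 and 1865 at that level.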

How the data were processed

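Polyadenylated RNA of whole retinas was sequenced in 12 libraries, from both eyes of 6 mice. The authors deposited 1 table of FPKM values by gene symbol for all libraries, and the unit was taken from the values. The submitters' notes name TopHat2, Bowtie2, Cufflinks, Cuffdiff and mm10, and the study's methods name HOMER counts over exons of RefSeq genes, so the counter behind the table is not settled. Of 24340 genes, 5831 were at 0 in all libraries and 18509 were tested, 27 of the symbols in the table having become dates. No libraries were identical.

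Values were taken as log2(FPKM + 1) and fitted in limma 3.58.1 (R 4.3.3) with a variance trend, a term for eye and a block for mouse. P-values were adjusted by Benjamini-Hochberg over all genes tested, and a call is an adjusted p under 0.05. The interaction of eye and GCV was fitted on the same data. The labels give the pairing, since eyes of the same number come from the same animal. The deviations of the eyes of mice 1 to 6 from their group means correlated at -0.12, 0.13, 0.21, 0.39, 0.17 and 0.10. Scripts were tested on simulated data.

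The sources used here give no read totals. Depth was estimated from the spacing of low values of 2243 single-transcript genes, a method chosen after the values were seen. At the estimate 84.2% to 90.2% of these low values lay within 0.2 of a whole number of fragments, where even spread gives 40%. Multiples of an estimate match such spacing too, and the smallest was taken. In the IOP library of mouse 6, 1 fragment on a transcript of 2 kb is about 0.125 FPKM.

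The comparison and the 40 gene lists were chosen with earlier results of these data known. Genes named are the 10 largest rises and 10 largest falls among called genes that moved the same way in 6 of 6 mice and reached a mean of 1 FPKM in either eye, the 5 smallest adjusted p in each direction under the same conditions, up to 3 called genes with the smallest adjusted p and the most abundant gene of each list, and genes the study names. Not every gene so chosen is printed, and some are not reported here. Promoters were picked by a rule on adjusted p. Alternatives covered the block, pseudocount, filter, scaling, variance model, threshold, and each mouse or GCV arm left out. Tables were handled in pandas 2.3.3 and numpy 2.4.6 under Python 3.11.15, and plots drawn in matplotlib 3.10.9.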

Additional observations from a re-analysis of the deposited data

Results flagged for a closer look

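Of 168 measures over 6 mice or 6 libraries, 16 had 1 sample farther from the others than Dixon's 95% limit for 6 samples allows, where chance flags about 1 in 20. No explanation was tested for any of them.

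Mouse 6 was low for Cebpd, Serpina3n, Edn2 and Gfap, with changes of 1.81, 1.05, 2.61 and 1.23, and for Abl1, at -0.83. Its IOP library also had the fewest genes above 0, 14844. Mouse 5 was low for Spc25 at -3.55, Glul at -2.48 and Gapdh at -0.27, and it was high for the medians of the STAT and IRF list (1.93), the gp130 list (0.89) and the hypoxia list (0.17). Mouse 2 was low for Lgals9, at 1.67, and high for Gng13, at 0.089. Mouse 4 was low for Il33, at 0.0077. Mouse 3 was high for the median of the cornea, ciliary body and iris list, at 1.58.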

How the results depend on the processing

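Against 1278 genes called higher and 1337 lower, the counts were 1252 and 1006 without the replicate block, 1119 and 865 of them shared with the paired fit. They were 1435 and 1327 with mouse as a random effect, 1420 and 1331 with a pseudocount of 0.1 FPKM, 1166 and 1561 among genes of at least 1 FPKM in 6 libraries, 1266 and 1420 after median-ratio scaling, 1288 and 1989 after quantile normalization, 1310 and 1357 without the variance trend, 1301 and 1347 with robust hyperparameters, and 1597 and 1499 with array weights. Counts moved by over 1.5 times with a 2-fold minimum (593 and 327), an adjusted p under 0.1 (1989 and 2260) and an unadjusted p under 0.05 (2668 and 3017). Leaving out 1 mouse gave 496 to 1084 and 72 to 1441, the 3 pairs without GCV gave 0 and 0, and the 3 pairs with GCV gave 5 and 0. Without mice 1 and 6 together, chosen after seeing the data, they were 468 and 71. The cause of the losses was not tested, beyond the fewer mice of such fits. In none of these settings was a gene called in the opposite direction.

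For the interaction of eye and GCV, 0 genes were called, and 0 without the replicate block, with a pseudocount of 0.1 FPKM or without the variance trend. At an unadjusted p under 0.05 there were 378. With 1 mouse left out the called count was 0 to 1, the 1 gene coming without mouse 1.

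Of 122 genes named in the text and followed across the settings, 111 were called, and 0 of the called genes reversed under any setting. Without the replicate block 7 lost their call, and without mice 1 to 6 in turn 6, 24, 32, 5, 29 and 13 did. Cdkn2a, which was not called, lay between -0.17 (without mouse 5) and 0.043 with 1 mouse left out, against -0.03, with values above 0 without mice 1, 2, 3 and 6 (0.0049, 0.013, 0.017 and 0.043). It turned to 0.088 in the pairs with GCV and to 0.10 without mice 1 and 6 together. Sall1, also not called, lay between -0.073 and 0.017 with 1 mouse left out, against -0.03, above 0 only without mouse 6, and turned to 0.0065 with array weights and 0.030 without mice 1 and 6 together. Values near the level of 1 fragment, such as those of Cdkn2a, are limited by depth, most of all in the IOP library of mouse 6.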
